A study of Drosophila melanogaster with 4 samples.

Results

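The regions described here are the stretches of chromosome arm 3R, the right arm of chromosome 3 of Drosophila melanogaster, that were called as significantly enriched for histone H3 monomethylated at lysine 36 (H3K36me1). They were taken from the region list of the whole series by position alone. A region was included if it lay on 3R and started more than 2 Mb from the first base of the arm sequence, which leaves out the centromere end. This gave 1689 of the 8190 regions of that list, over 25.9 Mb of sequence. The last region outside the limit, 3R:1939547-1942767, had a score of 0.40 and the first inside it, 3R:2171618-2173348, a score of 0.27.

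The mark was mapped by chromatin immunoprecipitation and sequencing (ChIP-seq) in nuclei of wild-type Oregon-R larvae of instar 3. The labels describe 2 ChIP samples and 2 input samples, numbered as replicates 1 and 2, all of one strain, stage and genotype and with no treatment. The data were 3 region lists, 1 for each ChIP sample and 1 for the whole series. Each region carries a score given by the authors' processing, whose scale is not stated. Whole larvae hold many tissues, so a region is an average over cell types, and fewer cells with the mark cannot be told apart from less of the mark per cell. The depth of the libraries is unknown. The labels do not say whether the replicates were separate collections of larvae, so the spread between them may be technical. Coordinates are of FlyBase release 5 and count from 1.

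Lysine 36 of histone H3 lies in the tail of the nucleosome and can carry up to a trimethyl group. In flies the trimethylated form is laid down over transcribed gene bodies by Set2, which travels with RNA polymerase, while Ash1, a Trithorax group protein that opposes Polycomb silencing, and the NSD enzyme Mes-4 are known to place lower methyl states. Monomethylation is known in fly chromatin maps from active genes, long ones and their introns among them. 3R carries both homeotic gene complexes of the fly, which are long developmental loci. Gene positions and sequence of release 5 were not used here, so regions are given by position and not by gene.

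H3K36me1 took up nearly the same share of 3R in both replicates, in short regions that were numerous and in broad domains that were few. Replicate 1 held 1196 regions over 5.98 Mb, or 23.1% of the sequence, and replicate 2 held 1199 regions over 5.75 Mb, or 22.2%. Coverage was thus 22.6% ± 0.62 (SD, n = 2). The density was 46.2 ± 0.08 regions per Mb (SD, n = 2). The whole-series list was longer than either, with 7.70 Mb or 29.7% of the sequence. Its regions were between 1001 bp and 170.4 kb wide, with a median of 2038 bp and quartiles of 1472 and 4120 bp. On 3R the narrowest region measured 1304 bp in the first replicate and 1302 bp in the second, and the median width 2283 and 2250 bp.

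Most of the covered length lay in a minority of the regions. Regions of at least 10 kb, called broad below, numbered 169, or 10.0% of the 3R regions, and held 48.2% of their length. Across all sequences 9.71% of the whole-series regions were that wide. Those of 20 kb or more were 63 regions and held 29.4% of the length. At the other end, 821 regions were under 2 kb and held 15.7% of it. Both replicates showed the same unevenness, with 134 broad regions holding 47.7% of the length in replicate 1 and 128 holding 45.5% in replicate 2. Scores were higher in wider classes. The median score was 0.30 under 2 kb, 0.42 from 2 to 5 kb, 0.65 from 5 to 10 kb, 0.88 from 10 to 20 kb and 1.10 at 20 kb or more. Over the 1689 regions, width and score had a Spearman's rho of 0.73; the regions come from one list and are not independent replicates.

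**Figure D1:**
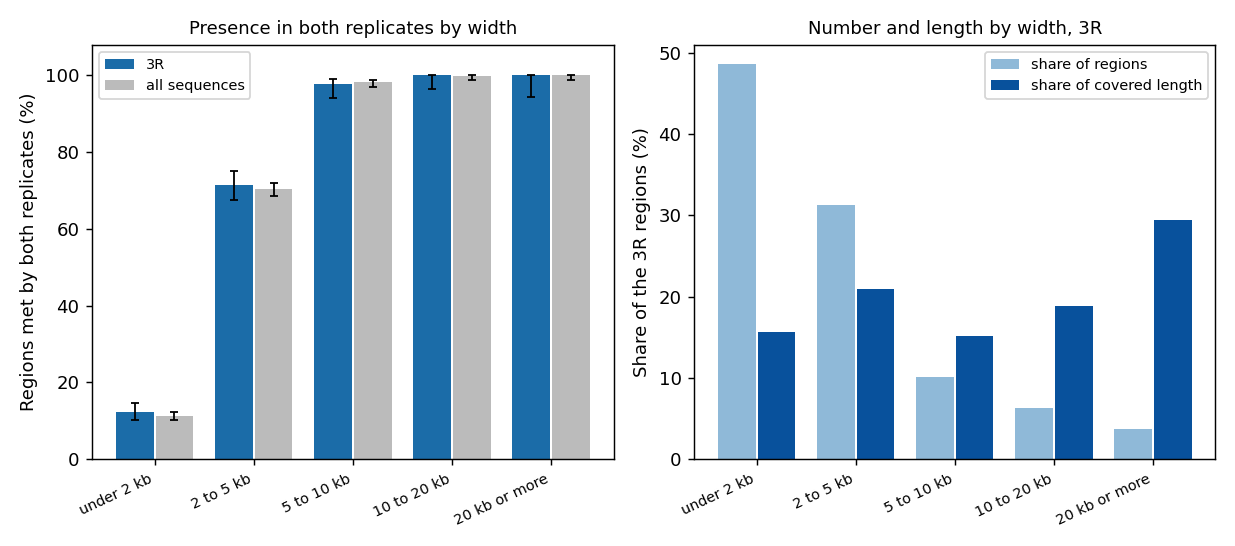
Left, percent of whole-series regions that share at least 1 bp with a region of both replicates, by width class, on 3R and on all sequences (bars, with 95% Wilson intervals). Right, percent of the 3R regions and of their covered length in each width class. The share met by both replicates was 12.2% under 2 kb and 100% from 10 kb on 3R, and the 63 regions of 20 kb or more held 29.4% of the length.

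The widest domain of 3R lay at 3R:6328808-6499246. It was 170.4 kb wide with a score of 1.61, and it was present almost whole in both replicates. Replicate 1 had 2 regions there, the wider of 166.5 kb, and replicate 2 had 3, the widest of 162.8 kb. Their scores reached 1.62 in replicate 1 and 1.65 in replicate 2. The break in replicate 1 was 1498 bp long, and the longest in replicate 2 was 2954 bp. Both replicates placed the break near the low-coordinate end of the domain, and 97.3% of the domain lay in regions of both. The outer borders differed little from those of the whole-series list. The domain began 869 bp further in for replicate 1 and 388 bp further in for replicate 2.

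The second in width, 3R:5695904-5780730, was 84.8 kb wide with a score of 1.01. Replicate 1 covered 99.3% of it in 2 regions, parted by 32 bp. Replicate 2 covered 95.8% in 7 regions, of which the widest was 20.8 kb, and its longest break was 2595 bp. The domain was therefore cut more often in replicate 2, by breaks as short as 6 bp, although 95.5% of its length lay in regions of both. The neighbouring region began 82 bp further on and was 27.5 kb wide. On the other side the next region was 60.8 kb away.

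Next in width was 3R:10231649-10307502, which was 75.9 kb wide with a score of 1.24. Coverage was 95.1% in replicate 1, from 3 regions, and 93.5% in replicate 2, from 5. The widest piece was nearly the same in both, 58.5 kb in replicate 1 and 58.7 kb in replicate 2, and the breaks lay at the low-coordinate end. Domain 3R:10567122-10615047, 47.9 kb wide, lay in the same megabase and was a single region in each replicate.

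It was followed by a more divided domain. Region 3R:2761967-2826732 was 64.8 kb wide but had a lower score of 0.81. It was the most broken of all 3R regions. Replicate 1 had 8 regions there and replicate 2 had 4, the widest of 15.2 kb in replicate 1 and 27.0 kb in replicate 2. The breaks were between 266 and 2416 bp long in replicate 1 and between 5 and 688 bp in replicate 2. Replicate 1 covered 90.0% of the domain and replicate 2 covered 96.6%, with scores of at most 0.93 and 0.99. Both replicates left 1.20% of its length uncovered together.

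The other 6 of the 10 widest domains were between 42.7 and 58.6 kb. Domain 3R:19116624-19175189 (58.6 kb) was 1 region in replicate 1 and 2 in replicate 2, with a break of 95 bp. Domain 3R:12512690-12565357 (52.7 kb) was 3 regions in replicate 1 and 4 in replicate 2, and in replicate 2 the last of these ran 1692 bp past its end. Domain 3R:27763326-27811909 (48.6 kb) was 3 regions in each replicate, with no break over 358 bp. Domains 3R:14875143-14920200 (45.1 kb) and 3R:9805587-9848308 (42.7 kb) were single regions in both replicates. At 3R:9805587-9848308 the region of replicate 1 ran on for 2906 bp, across an 11 bp gap into the next whole-series region. Each of the 10 was met by both replicates, as were all 288 whole-series regions of 20 kb or more on all sequences. Of the 10, 3 were a single region in each replicate, against 35.3% of the whole list, which holds regions of any width. Together the 10 held 8.98% of the length of the 3R regions.

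**Figure D2:**
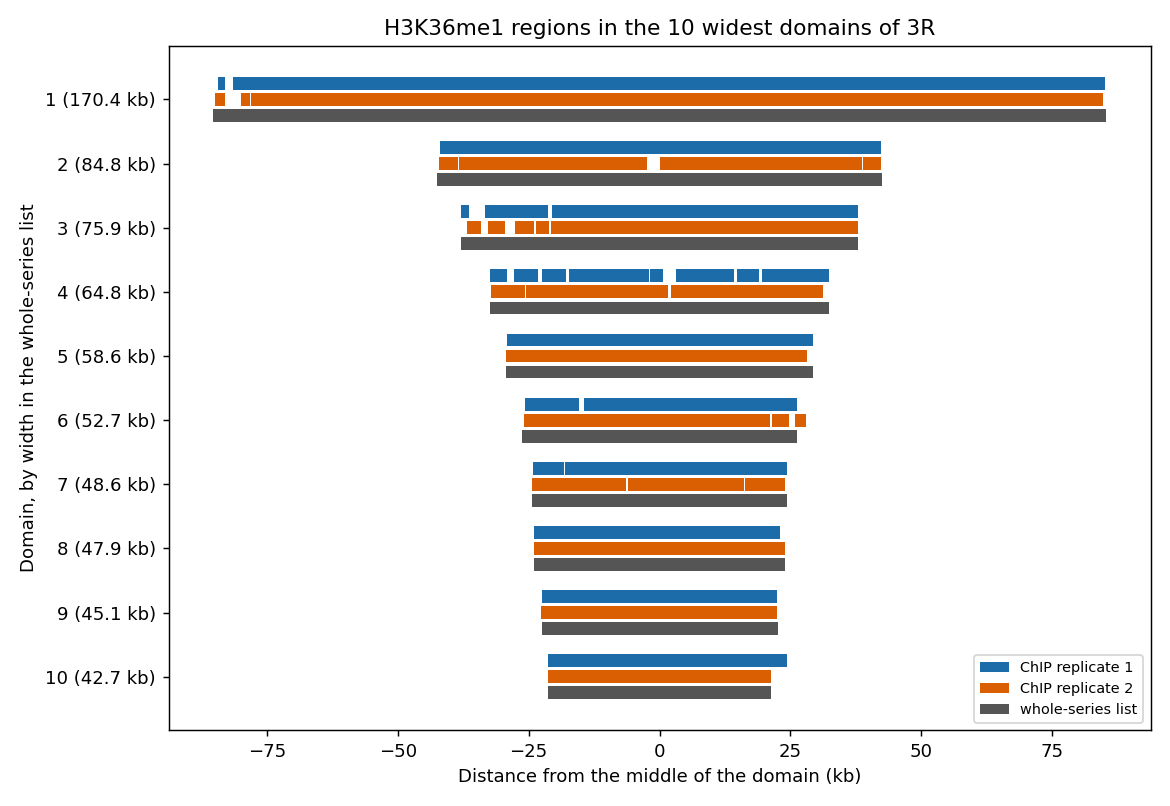
Regions of replicate 1, replicate 2 and the whole-series list in the 10 widest domains of 3R, as distance from the middle of each domain in kb, ordered by width. Bars are regions and gaps are sequence outside them; breaks of a few bp are too narrow to be seen. Domain 4 (64.8 kb) had 8 regions in replicate 1, 4 in replicate 2, and domains 8 to 10 were single regions in both.

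The best-scoring regions of 3R were mostly broad, but not the broadest. Of the 10 best, 8 were at least 10 kb wide and 2 were among the 10 widest. All 10 were met by both replicates, and 7 were a single region in each. Over the whole list, both replicates met 99.8% of regions of 10 to 20 kb and 100% of those of 20 kb or more. Of whole-series regions of any width, 35.3% were a single region in each. The best was 3R:12067895-12086457, 18.6 kb wide, with a score of 1.94. Replicate 2 had it as 1 region with a score of 1.93. Replicate 1 had 2 regions there, with scores of at most 2.28, the highest score of any 3R region in that list. The second was 3R:9805587-9848308, which was also the narrowest of the 10 widest. It scored 1.77 in the list of all samples, 1.75 in replicate 1 and 1.76 in replicate 2. For 3R:25599664-25618598 (18.9 kb) the score was 1.81 in replicate 1 and 1.70 in replicate 2. For 3R:5244552-5272223 (27.7 kb) it was 1.81 in replicate 1 and 1.69 in replicate 2.

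The best-scoring regions were partly neighbours. The best, the fifth (3R:12062708-12067281, 4.57 kb, score 1.69) and the sixth (3R:12098926-12124308, 25.4 kb, score 1.67) all lay within 61.6 kb. That span held 5 whole-series regions and 86.8% of it was covered. Replicate 1 covered 81.0% of the span in 5 regions and replicate 2 covered 83.4% in 6. The fifth region was the narrowest of the 10, and its scores were still 1.79 in replicate 1 and 1.66 in replicate 2. The other narrow one was 3R:27425735-27434859 (9.13 kb), with 1.69 in replicate 1 and 1.63 in replicate 2. In the whole-series list the fifth region scored 1.69, where the median of regions of 2 to 5 kb was 0.42. Region 3R:27425735-27434859 scored 1.64 there, where the median of regions of 5 to 10 kb was 0.65. Both were picked for their high scores, so a place above these medians was fixed by the choice.

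The remaining regions of the 10 best were 3R:10525562-10550147 (24.6 kb, score 1.64), 3R:23393069-23406946 (13.9 kb, score 1.62) and the widest domain, which ranked last of the 10 by score. The first of them ended 17.0 kb before the domain at 3R:10567122-10615047 began. Region 3R:23393069-23406946 began 15.4 kb after one of the longest empty stretches of the arm, 3R:23118702-23377712.

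Nearly 1 in 2 of the 3R regions was present in both replicates, and presence followed width. A region counts as met when it shares at least 1 bp with a region of the other list. How the whole-series list was made is not stated, and it may rest on the same 2 ChIP samples. The 3 lists may therefore not be independent, and the shares met are not a measure of replication. Of the 1689 regions, 813 were met by both replicates, which is 48.1% (95% Wilson interval 45.8% to 50.5%, for the counting of regions only). Over the whole list the share was 46.8%. Another 212 regions (12.6%, against 12.2% of the whole list) were met by replicate 1 alone and 153 (9.06%, against 9.47%) by replicate 2 alone. Neither replicate met 511 regions, or 30.3%, against 31.5% of the whole list. The shares on 3R differed from those of all sequences by at most 1.30 percentage points. The 813 regions in both held 6.24 of the 7.70 Mb.

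By width, both replicates met 100 of 821 regions under 2 kb (12.2%, against 11.1% over the whole list) and 377 of 528 regions of 2 to 5 kb (71.4%, against 70.3%). They met 167 of 171 regions of 5 to 10 kb (97.7%, against 98.2%) and all 169 broad ones (106 of 10 to 20 kb, against 99.8%, and 63 of 20 kb or more, against 100%). A wide region can be met by 1 bp more easily than a narrow one, and the shares were not corrected for this. When at least 50% of a region had to be covered in each replicate, 43.9% of the 3R regions were met by both.

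Regions met by neither replicate were short and mostly low in score, as narrow regions were in general. Their median width was 1290 bp and the widest was 3903 bp. Of the 511, 266 were narrower than the 1302 bp of the narrowest 3R region in either replicate list, so a region of that width had no counterpart of its size there. Their median score was 0.32, against 0.30 for regions met by replicate 1 alone, 0.32 for those met by replicate 2 alone and 0.52 for those met by both. All 3R regions under 2 kb had a median of 0.30, but 480 of these 821 were themselves met by neither. Whether regions met by neither were low for their width was therefore not tested. A pair stood out by score, at 0.90 for 3R:27714312-27715378 and 0.76 for 3R:21149850-21150919. They were 1067 and 1070 bp wide. The next in the class, 3R:11086335-11087663, had 0.48, followed by 3R:5518814-5519857 with 0.46 and 3R:7278371-7279606 with 0.45. The nearest whole-series region to 3R:27714312-27715378 was 19.7 kb away.

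The widest regions seen in a single replicate were under 6 kb. Region 3R:12810130-12815945 was covered to 99.1% in replicate 1, with a score of 0.55, and had no region in replicate 2. Region 3R:21918976-21924334 was covered to 82.8% in replicate 2 (score 0.68) and 3R:5834435-5840221 to 85.2% in replicate 2 (score 0.59), and neither had a region in replicate 1. The widest of the class, 3R:25645535-25651412, had in replicate 2 only a region of 1.73 kb inside it. Region 3R:19175452-19180426, in replicate 1 alone, began 262 bp after the end of the fifth widest domain. Whole-series scores of these 5 regions lay between 0.40 and 0.42.

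Set directly against each other, the replicates met in 953 of 1196 regions of replicate 1 (79.7%, Wilson 77.3% to 81.9%) and in 1012 of 1199 regions of replicate 2 (84.4%, 82.2% to 86.3%). Over all sequences these shares were 80.1% and 84.2%. Of the 6.55 Mb of 3R in either replicate, 5.18 Mb or 79.0% was in both. On 2L it was 79.5% and on 3L 78.9%. Unmatched regions were narrow: the 243 of replicate 1 measured 1600 bp at the median, against 2886 bp for matched ones, and the widest was 5769 bp. For the 187 of replicate 2 the median was 1527 bp, against 2666 bp. None of the unmatched regions was broad. The whole-series list held 99.3% of the length found in either replicate, and 4 regions of the first replicate and 5 of the second had no base in it.

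Where a domain was found in both replicates, its extent varied less than its division. Of the 813 regions in both replicates, at least 1 replicate cut 193 into 2 or more pieces, which is 11.4% of the 3R regions, against 11.6% of the whole list. Of the 169 broad regions, 67 were single in both replicates, 53 were cut in both, 36 in replicate 2 alone and 13 in replicate 1 alone. Still, 89.4% of the length of broad regions lay in regions of both replicates, 4.01% in replicate 1 alone, 3.25% in replicate 2 alone and 3.29% in neither. These values for broad regions are not given for other sequences, so they are not shown to be particular to 3R. The median broad region was covered to 96.7% by replicate 1 and 95.4% by replicate 2. The least covered by the mean of the replicates was 3R:17154335-17164872 (10.5 kb, score 0.38), with 42.4% in replicate 1 and 17.3% in replicate 2. Next to the 64.8 kb and 84.8 kb domains, the most divided regions were 3R:26591566-26610164 (18.6 kb, 5 regions in each replicate), 3R:9743911-9760214 (16.3 kb, 3 in replicate 1 and 6 in replicate 2) and 3R:17648791-17665579 (16.8 kb, 4 in replicate 1 and 5 in replicate 2). Replicate scores in these 3 regions reached at most 0.78.

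Borders and scores were close for regions paired one to one. There were 607 whole-series regions that met 1 region of each replicate, where that region in turn met no other. The median distance between the starts of a pair was 129 bp, and between the ends 129 bp. Starts lay within 100 bp of each other in 245 pairs (40.4%) and ends in 255 (42.0%), while 34 starts and 52 ends were over 1 kb apart. The scores of a pair differed by a median of 0.07 in size. Pearson's r was 0.95 and Spearman's rho 0.88 over the 607 pairs, which describe a single pair of libraries. The largest difference was at 3R:19870352-19872980, with 0.81 in replicate 1 and 0.41 in replicate 2.

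**Figure D3:**
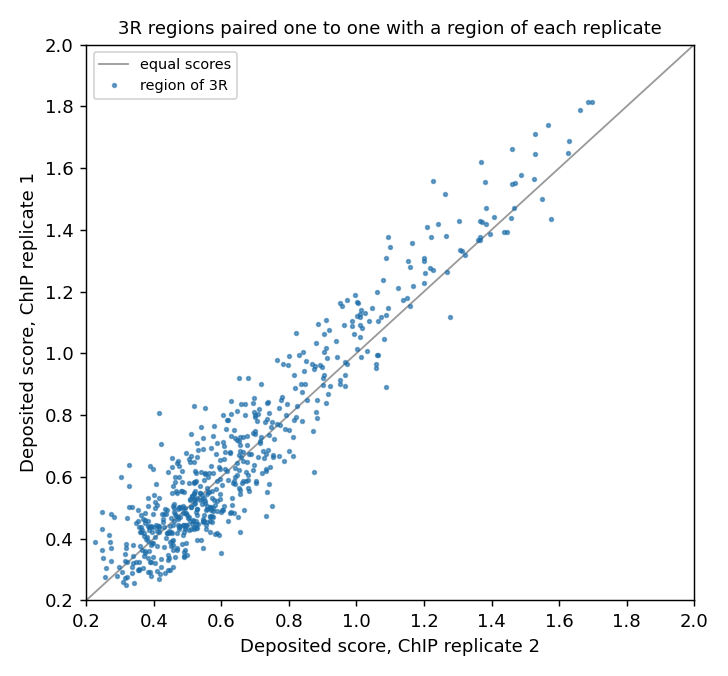
Deposited score of replicate 1 against that of replicate 2 for 607 regions of 3R paired one to one (points), with the line of equal scores. The median scores were 0.58 in replicate 1 and 0.57 in replicate 2, and points with high scores lie mostly above the line.

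H3K36me1 was unevenly spread along the arm. In 26 windows of 1 Mb, the last of 0.905 Mb, coverage had a median of 22.1% in replicate 1 and 21.2% in replicate 2. The most covered was 5 to 6 Mb, with 43.7% in replicate 1 and 39.8% in replicate 2. It held the second widest domain, the region 3R:5244552-5272223, among the 10 best by score, and 11 broad regions. Next came 19 to 20 Mb, with 37.2% in replicate 1 and 34.2% in replicate 2, and 10 to 11 Mb, with 36.1% in replicate 1 and 35.0% in replicate 2. The window of 12 to 13 Mb held the most broad regions, 14, and was covered to 35.3% in replicate 1 and 34.5% in replicate 2.

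The least covered window was 13 to 14 Mb, right next to it, with 7.10% in replicate 1 and 7.71% in replicate 2. It was followed by 23 to 24 Mb, with 10.2% in replicate 1 and 10.5% in replicate 2, and 8 to 9 Mb, with 11.6% in replicate 1 and 9.68% in replicate 2. These 3 windows held 3, 1 and 2 broad regions. The mean coverage of the most covered window was 5.64 times that of the least covered. The number of broad regions went from 1 to 14 and that of all regions from 39 to 91. Over the 26 windows, which are neighbours on one arm, Spearman's rho with mean coverage was 0.79 for the number of broad regions and 0.36 for the number of all regions. Broad regions add more length each, so the first value is partly set by construction. The median score per window stayed between 0.34 and 0.41.

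The replicates gave nearly the same profile. The median difference between them was 0.92 percentage points and the largest 4.39 points, in the window of 11 to 12 Mb, whereas the SD over windows was 8.74 points. Replicate 1 was higher in 19 windows and replicate 2 in 7. Pearson's r between replicates over the windows was 0.99. Coverage was 23.9% ± 1.02 over the first of 3 equal parts of the sequence used, at the centromere side, 22.4% ± 0.78 over the middle part and 21.7% ± 0.07 over the part at the telomere side (SD, n = 2). The last region of the whole-series list ended 10714 bp before the end of the arm sequence.

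**Figure D4:**
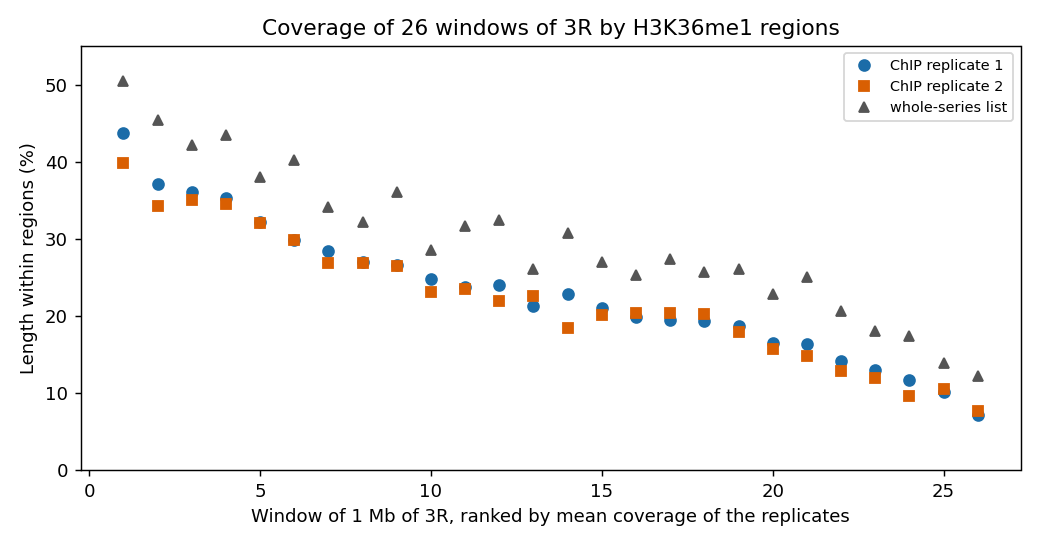
Percent of the length of each 1 Mb window of 3R that lay within regions of replicate 1, replicate 2 and the whole-series list (points), with the 26 windows ranked by the mean of the replicates. Replicate values go from 43.7% and 39.8% in the first window to 7.10% and 7.71% in the last, and the whole-series list lies above both throughout.

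Many regions lay close together, and long stretches of the arm were empty. Short gaps were about as common on the other arms. Of the gaps between neighbouring whole-series regions, 34.4% were under 1 kb on 3R, 31.5% on 2L and 33.2% on 3L. The gap to the nearest other whole-series region was at most 1 kb for 934 of the 1689 regions (55.3%), and its median was 797 bp. In the replicate lists, which hold fewer regions, 46 stretches of at least 100 kb had no region in either replicate. They made up 7.92 Mb, or 30.6% of the sequence used. Of these, 14 were at least 200 kb long. The longest was 3R:2282385-2635075 (352.7 kb), which ended 126.9 kb before the start of the much divided 64.8 kb domain. The whole-series list placed 3 short regions in it, the best with a score of 0.38. Next were 3R:23813629-24149634 (336.0 kb), 3R:6720658-6979891 (259.2 kb), 3R:23118702-23377712 (259.0 kb) and 3R:18614153-18872308 (258.2 kb). The whole-series list had 1 region wholly inside 3R:6720658-6979891, with a score of 0.30, and no region wholly inside the other 3. Whether reads can be aligned throughout these stretches was not examined, and a stretch without a region is not shown to lack the mark.

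The arms most like 3R, 2L and 3L, were set beside it with the same 2 Mb at the centromere end left out. Coverage of 3R was higher than that of 2L by 0.67 points in each replicate (22.6% ± 0.62 on 3R and 22.0% ± 0.62 on 2L) and different from that of 3L by -2.83 points in replicate 1 and -2.80 in replicate 2 (25.4% ± 0.64 on 3L; SD, n = 2), so lower on 3R. The density was 46.2 ± 0.08 regions per Mb on 3R, 44.6 ± 0.07 on 2L and 52.3 ± 0.41 on 3L. Median scores were 0.56 ± 0.02 on 3R, 0.56 ± 0.02 on 2L and 0.56 ± 0.02 on 3L. The median score of 3R minus that of 2L was -0.0040 in replicate 1 and -0.0045 in replicate 2. Minus that of 3L it was 0.0049 in replicate 1 and -0.0011 in replicate 2, so of no common sign. The difference in coverage had the same sign in 2 of 2 replicates for each arm. In an exact two-sided sign-flip test over the replicates p was 0.5 for each arm, the smallest that 2 replicates allow, so this design cannot pass a threshold of 0.05. With the centromere ends included, coverage of 3R exceeded that of 2L and 3L together by 0.58 points, whereas without them the difference was -1.13 points.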

How the data were processed

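The deposited data were 3 lists of regions of significant enrichment, 1 per ChIP sample and 1 for the whole series. Each region has a score, a value of unstated scale that the authors' processing gave it, used here to describe and rank regions within a list. Scores of the replicates are set side by side on the assumption that their lists share a scale. Per the submitters' processing notes, reads were aligned with Bowtie 0.12.7. Per the file headers, coordinates are of FlyBase release 5. For the region caller, its thresholds and the making of the whole-series list, nothing is given in the sources used here. Input values were not analysed, and depth is unknown.

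Overlaps of at least 1 bp, coverage and gaps were computed with Python 3.11.15, numpy 2.4.6 and pandas 2.3.3, Wilson intervals with scipy 1.17.1 and figures with matplotlib 3.10.9. The interval functions were tested on simulated data. The 2 replicates form 1 group, so no test between groups of samples was made; coverage of arms was compared within each replicate by an exact sign-flip test. Named are the 10 widest and 10 best-scoring regions, the 5 best-scoring met by neither replicate, the 5 widest met by a single one, the 5 most divided, the extreme windows (3 at each end of the order) and the 5 longest stretches without a region. The window with most broad regions, the least covered broad region, the largest score difference and the groups of neighbours were chosen after their values were seen. The regions and lists were chosen with earlier results of these data known. Alternatives covered the best-scoring 50% of regions, joining within 1 kb, other widths, windows and overlaps, the whole arm and each replicate alone.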

Additional observations from a re-analysis of the deposited data

How the results depend on the processing

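Most values without a test are called moved when they changed by more than the spread between replicates. Numbers of regions are called moved when they changed by over 1.5 times. The share of regions met by both replicates and the shared part of the joint length have no value per replicate. The former is called moved when it left its Wilson interval for the counting of regions. For the latter any change, however small, is called moved. Of 47 alternative values for 10 results, 22 did not move, 24 moved and 1 changed sign. In 15 of the 22, 1 replicate was left out. In 12 of these, the value of a single replicate took the place of the mean of both values. Except for the numbers of regions, not moving then holds by construction and says nothing of stability. With the best-scoring 50% of regions of each list, 3R had 553 regions per replicate, covering 17.9%; the median width was 5012.5 bp and the median score 0.77. Then 53.6% of whole-series regions were met by both replicates, 81.4% of the joint length was shared, the difference in coverage from 2L and 3L was -0.90 points, and the longest empty stretch was 363.3 kb. With the whole-series list, coverage was 29.7%, the median width 2038 bp, the median score 0.37, the share of length in broad regions 48.2%, the difference from 2L and 3L -1.63 points, the range over windows 38.3 points and the longest empty stretch 335.6 kb. Joining regions within 1 kb gave a median width of 2835.5 bp and 60.0% of length in broad regions, which was 64.6% from 5 kb and 27.5% from 20 kb. An overlap of at least 50% left 43.9% of regions met by both. The range over windows, 34.4 points, was 42.9 with windows of 500 kb and 17.2 with windows of 2 Mb. With the whole arm, 79.3% of the joint length was shared, and the difference from 2L and 3L, -1.13 points, turned to 0.58. That change comes from the centromere ends, which is what the setting adds. With 1 replicate left out in turn, numbers were 1196 to 1199 regions, coverage 22.2% to 23.1%, median width 2250 to 2283 bp, median score 0.55 to 0.57, broad length 45.5% to 47.7%, the arm difference -1.14 to -1.12 points, the window range 32.1 to 36.6 points and the longest stretch 352.7 to 352.8 kb. No paired analysis was possible because input values were not analysed, so that ChIP could not be set against input; arms were compared within each replicate. Depth, which is unknown, limits every border and score.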

Other observations

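Among the 607 regions of 3R paired one to one, the sign of the score difference between replicates changed with the level of the score. Ranked by the mean of the 2 scores and cut into 4 groups of like size, the lowest group had a median difference (replicate 1 minus replicate 2) of -0.01 and 71 of 152 pairs higher in replicate 1. The second group had -0.02, with 61 of 152. The third had 0.03, with 87 of 151, and the highest group had 0.07, with 117 of 152. Median scores in the highest group were 1.11 in replicate 1 and 1.01 in replicate 2. Whether the score has one scale in both lists is not known.

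For regions of 3R that no replicate list held, the distance to the nearest other region was also looked at. Of the 511, 256 (50.1%) lay within 1 kb of another whole-series region, against 55.3% of all 3R regions, which include the 511. The share was 58.5% of the 813 met by both and 55.3% of those met by a single replicate. These differences were not tested. The shares over the whole list are not given, so nothing here is shown to be particular to 3R. On 3R, 11 regions of replicate 1 and 4 of replicate 2 met 2 whole-series regions each.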
